A study of Mus musculus with 6 samples.

Results

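The DNA replication and mitosis genes are a set of 33 genes chosen by function, of which 32 could be followed among the 18193 mouse genes with a probe set of their own on the array. A probe set is a group of short probes that reads 1 transcript. Where a gene had several, the one with the highest mean over the 6 arrays stood for it. Of the 32, 14 act in DNA replication and 18 in mitosis. The cyclin gene Ccnb1 is on the list, but no probe set carried its name here and it was not analysed here. All 32 had a mean log2 signal above the filter level of 2.73, below which probe sets were left out of the tests.

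The RNA came from primary cells of the ovarian surface epithelium, the single layer that covers the ovary, taken from virgin FVB/N females of 8 weeks. No genetic change was made. After 24 hours in culture the cells were labelled with ALDEFLUOR, which becomes bright inside cells with aldehyde dehydrogenase (ALDH) activity, then split by flow sorting into an ALDH-positive and an ALDH-negative fraction against controls treated with the ALDH inhibitor diethylaminobenzaldehyde. There were 3 independent pools of 10 mice, each giving 1 array of each fraction. The labels give a fraction and a replicate number, and arrays of 1 number were taken as the fractions of 1 pool. The question is whether the sorted fractions differ in the genes of the dividing cell.

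A cell that divides first licenses its origins of replication. Cdc6 and Cdt1 load the ring-shaped Mcm2 to Mcm7 helicase, cyclin E with its kinase starts synthesis, and the GINS complex and the sliding clamp Pcna carry the fork forward. In mitosis cyclins A and B with Cdk1, the Aurora kinases and Plk1 condense and align the chromosomes. The Bub1 family watches their attachment, and Cdc20 and Ube2c then mark cyclin B and securin for destruction. Transcripts of the first group are known to peak around the start of DNA synthesis and those of the other group before mitosis, so that their abundance in a cell population is commonly read as its share of dividing cells. In a bulk sample fewer dividing cells and less RNA per dividing cell cannot be told apart.

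The promoters are shown because both groups are known for different control letters near their starts. Of the 32 genes, 26 had an entry in the RefSeq promoter table (GRCm38.p6), which gives 250 bases before to 50 after the start of a gene. Both strands were searched for TTTGAA (the core of the cell cycle homology region, CHR, known as a site of the MuvB complexes), for CCAAT (the NF-Y box) and for TTCCCGC or TTGGCGC (cores of E2F sites). A CHR core was in 11 of 15 mitotic promoters (73.3%), in 1 of 11 replication promoters (9.09%) and in 17.9% of all 32851 promoters. An E2F core was in 2 of 15 mitotic promoters (13.3%), in 6 of 11 replication promoters (54.5%) and in 6.81% of all. CCAAT was in 13 of 15 (86.7%), 7 of 11 (63.6%) and 37.4%, counting overlapping matches separately. CHR and CCAAT cores stood together in 11 of the 15 mitotic promoters, 1 of the 11 replication promoters and 6.95% of all. Such matches describe letters and not bound sites.

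The stretches below are the 170 bases just before the start, 5′ to 3′ on the strand of the gene, with every searched core in capitals. They belong, in each group, to the 3 members with the smallest limma p that hold a CHR core (mitotic) or an E2F core (replication) in this stretch. Ube2c lies at chr2:164769759-164769928 (+ strand), Top2a at chr11:99024190-99024359 (- strand) and Cdk1 at chr10:69352913-69353082 (- strand). Mcm6 lies at chr1:128359706-128359875 (- strand), Mcm5 at chr8:75109339-75109508 (+ strand) and Cdc6 at chr11:98907981-98908150 (+ strand).
Ube2c: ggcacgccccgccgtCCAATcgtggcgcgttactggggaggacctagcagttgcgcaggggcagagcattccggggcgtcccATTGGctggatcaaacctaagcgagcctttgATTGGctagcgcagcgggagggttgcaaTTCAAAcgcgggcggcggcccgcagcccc
Top2a: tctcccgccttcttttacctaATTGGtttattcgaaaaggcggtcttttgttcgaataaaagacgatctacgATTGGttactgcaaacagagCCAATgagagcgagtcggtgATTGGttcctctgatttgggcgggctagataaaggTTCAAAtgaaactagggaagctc
Cdk1: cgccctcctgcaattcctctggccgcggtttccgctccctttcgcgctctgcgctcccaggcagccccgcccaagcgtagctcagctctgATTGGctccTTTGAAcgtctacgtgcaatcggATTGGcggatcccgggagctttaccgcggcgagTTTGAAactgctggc
Mcm6: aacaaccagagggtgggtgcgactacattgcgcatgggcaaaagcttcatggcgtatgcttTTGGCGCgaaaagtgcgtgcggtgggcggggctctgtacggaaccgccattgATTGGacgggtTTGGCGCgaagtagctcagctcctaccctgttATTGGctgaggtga
Mcm5: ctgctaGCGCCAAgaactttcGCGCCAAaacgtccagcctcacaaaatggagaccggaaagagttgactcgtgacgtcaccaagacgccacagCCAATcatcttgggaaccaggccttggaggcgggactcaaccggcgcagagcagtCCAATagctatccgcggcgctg
Cdc6: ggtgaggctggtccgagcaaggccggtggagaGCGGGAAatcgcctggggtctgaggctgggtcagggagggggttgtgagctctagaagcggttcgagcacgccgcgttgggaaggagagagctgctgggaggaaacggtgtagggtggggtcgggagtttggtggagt
In Ube2c the CHR core, read from the other strand as TTCAAA, begins at base -29 and in Cdk1 at bases -71 and -15, counted from the first base before the start. In Top2a it begins at base -23, again as TTCAAA, with CCAAT cores further out. The E2F cores of Mcm6 begin at bases -109 and -46 and those of Mcm5 at bases -164 and -149. Cdc6 holds an E2F core at base -138 and no CHR or CCAAT core.

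The arrays have to be weighed before the values. The ALDH-negative array of pool 2 correlated at 0.558 to 0.679 with the others across probe sets, and the other 5 at 0.850 to 0.974 among themselves. It had low 18S RNA (5.80 against 8.66 to 12.30 at the 3′ control) and the highest BioC spike-in (10.02 against 7.87 to 8.73). Both pool 3 arrays had a low 5′ Gapdh signal (6.63 and 5.20, against 7.92 to 10.30 elsewhere). Of the 14 surface epithelium markers, 14 lay higher in ALDH-positive cells in each pool (median difference 3.35), and on ALDH-negative arrays the epithelial factor Bnc1 read only 1.47 to 1.94. Every difference below is the log2 signal of ALDH-positive minus ALDH-negative cells. Means that move by over 1.5 times without pool 2 are given with and without it, or with the difference in each pool.

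Most of the genes read higher in the ALDH-positive fraction, and none passed the test over all probe sets. In the mean of the pools 26 of 32 members lay higher, with a median difference of 1.09, against -0.08 for the 12814 genes above the filter level. Without pool 2 the median was 0.72, against 0.04 for those genes. The limma test with the pool as a block called 0 of 27022 probe sets (0.0%) at an adjusted p of 0.05, while 661 had an unadjusted p under 0.05. Among the members the adjusted p ran from 0.895 to 0.953. At the unadjusted level 2 members lay higher, Cdt1 and Cenpe, where 1.93% of all genes did so, and no member lay lower, where 0.429% did so. With weights for array quality, 5 of 32 members passed as higher, and 4.78% of genes passed as higher and 3.78% as lower. The scaling shifted the level of all probe sets: 48.2% lay higher in ALDH-positive cells after quantile normalization (median -0.04), 52.7% in the values as deposited (median 0.06) and 61.5% with median-centred arrays (median 0.22). The weighted fit leans on pool 3, as its weights were 1.30, 0.158 and 4.87 for pools 1, 2 and 3.

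By pool the direction was steady and the size was not. In pool 1, 30 of 32 members lay higher (background 50.6% of genes), by a median of 0.62 and at most 1.22. In pool 3, 26 of 32 did (background 51.5%), by a median of 0.67. In pool 2, 26 of 32 did as well (background 47.3%), by a median of 2.05. Of the 32, 24 lay higher in both pools 1 and 3 (background 27.8%) and 21 in all 3 pools (background 11.3%). No member lay lower in all 3 pools (background 11.4%). Between the differences of pool 1 and of pool 3, over the 32 genes and the same 4 arrays, Pearson's r was -0.15 and Spearman's rho -0.03, given as a description.

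**Figure D1:**
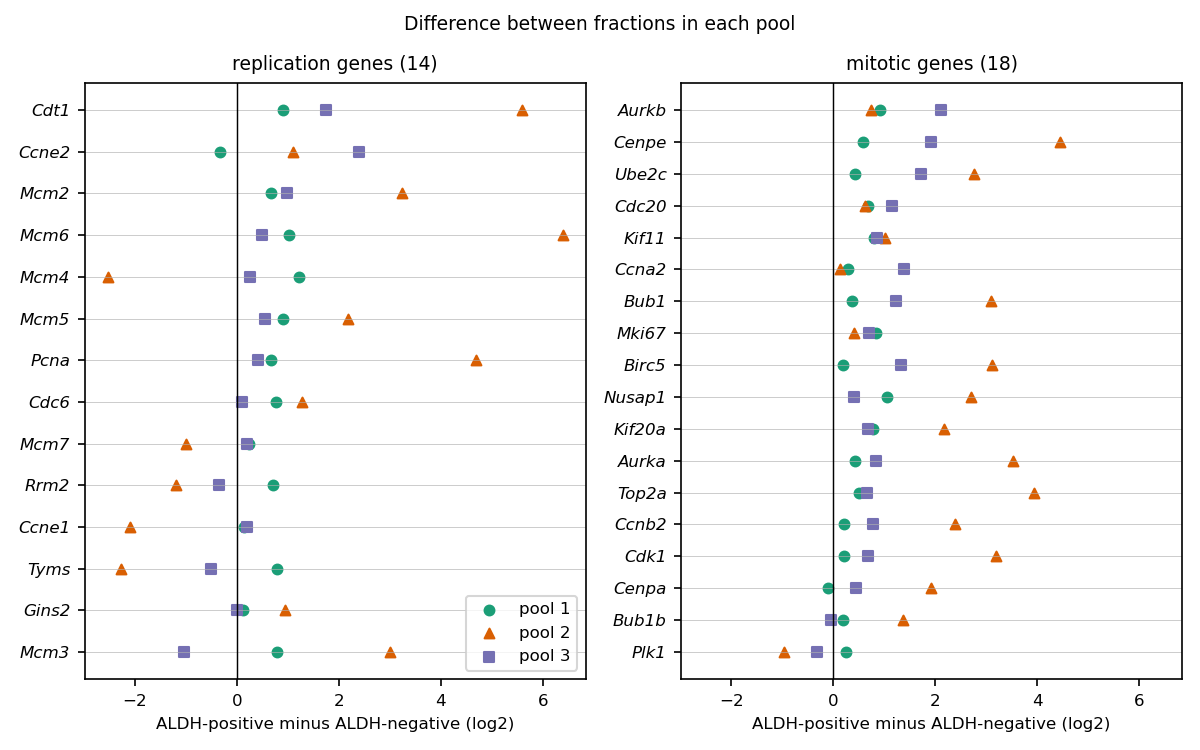
Difference between ALDH-positive and ALDH-negative cells (log2, horizontal axis) of each replication gene (left) and mitotic gene (right) in pools 1, 2 and 3, 1 point per pool, ordered by the mean of pools 1 and 3. Pool 1 lies above 0 for 30 of 32 genes and by no more than 1.22, while pool 2 spreads from -2.53 to 6.40.

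Over the 3 pools the mitotic genes were the more even group. Of 18 mitotic genes 17 lay higher in the mean and 15 in all 3 pools. Of 14 replication genes 9 lay higher in the mean and 6 in all 3. The 5 replication genes with a lower mean all read highest on the ALDH-negative array of pool 2. By pool, 13, 9 and 10 replication genes and 17, 17 and 16 mitotic genes lay higher in pools 1, 2 and 3. The mitotic median was 1.23 (0.75 without pool 2) and the replication median 0.82 (0.49 without pool 2). By probe sets ending in _at or _a_at alone the medians were 1.21 (mitotic) and 1.16 (replication). Their order was not the same in each pool. In pool 1 the replication genes had the larger median (0.73 against 0.43), in pool 2 the mitotic genes (2.29 against 1.19) and in pool 3 again the mitotic genes (0.82 against 0.23). The difference between the groups was not tested.

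Summed over its members as linear signal (2 to the power of the log2 value), the mitotic group gave 1654, 918 and 1529 on the ALDH-negative arrays of pools 1 to 3 and 2305, 2448 and 3186 on the ALDH-positive ones. The fractions did not overlap in that sum. They did overlap in the same sum over 62 other mitotic genes, described below. It was 3900, 10413 and 5473 in ALDH-negative cells, against 5020, 5139 and 7796 in the positive fraction. The replication group gave 1550.4, 2933 and 1964 in ALDH-negative cells, against 2541, 2466 and 2609.9 in the positive fraction. Here the ALDH-negative array of pool 2, with its high Mcm4, Rrm2 and Mcm7 values, was the highest of the 6 and the fractions overlapped. By the median log2 level of the 14 replication genes the same array was the lowest: the arrays read 6.54, 4.94 and 6.47 against 7.60, 7.64 and 7.36, without overlap.

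Licensing factors were led by Cdt1, which brings the helicase to the origin. It read 7.05, 2.09 and 7.04 in ALDH-negative cells of pools 1, 2 and 3 and 7.95, 7.67 and 8.78 in ALDH-positive cells. All ALDH-positive arrays lay above all ALDH-negative ones, and the low value is that of the array that stood apart. The difference was 2.74 (SE 0.98, n = 3 pools, limma adjusted p = 0.895), a 6.69-fold ratio, and 1.32 or 2.50-fold without pool 2. A second probe set of Cdt1 read 5.48, 3.21 and 3.68 against 6.17, 5.92 and 5.99, also without overlap, with a difference of 1.91. Cdc6, the other loader, read 4.65, 4.37 and 3.93 against 5.41, 5.65 and 4.04. Its pool differences of 0.76, 1.28 and 0.11 gave a mean of 0.72 (SE 0.65), and of 0.43 without pool 2.

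Among the helicase subunits Mcm6 had the widest gap and the least even one. It read 6.97, 1.41 and 8.01 in ALDH-negative cells, against 7.99, 7.81 and 8.50 in the positive fraction. The mean difference of 2.64 (SE 1.16) came from 6.40 in pool 2 against 1.02 and 0.49 in pools 1 and 3, and was 0.76 without pool 2. The other kept probe set of Mcm6 differed by only 0.53, by -0.50 in pool 3 and by -0.04 without pool 2. Mcm2 read 5.87, 3.10 and 3.06 against 6.54, 6.34 and 4.05, higher by 0.67, 3.24 and 0.99 (mean 1.64, SE 0.76; 0.83 without pool 2). Both kept probe sets of Mcm2 lay higher in every pool. Mcm5 read 6.84, 5.57 and 8.12 against 7.74, 7.75 and 8.66, a mean difference of 1.21 (SE 0.68), and of 0.72 without pool 2. Its other kept probe set turned in pool 3, at 3.68 in ALDH-negative cells, against 2.22 in the positive fraction.

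By their brightest probe sets the remaining subunits did not share a direction. Mcm3 read 7.15, 4.82 and 5.90 against 7.93, 7.83 and 4.86, so that pool 3 lay lower by 1.04 and the mean of 0.92 (SE 0.88) became -0.13 without pool 2. All 5 kept probe sets of Mcm3 lay higher in the mean, by 0.32 to 1.52, and 2 of the 5 did in pool 3. Without pool 2 they ran from -0.13 to 0.86, with 3 higher. Mcm4 read 6.25, 10.15 and 7.74 against 7.47, 7.61 and 7.99, and Mcm7 read 7.60, 9.02 and 7.73 against 7.83, 8.02 and 7.92. In both the ALDH-negative array of pool 2 was the highest of the 6, which set the mean differences at -0.35 (SE 0.86) and -0.19 (SE 0.66). In pools 1 and 3 both genes lay higher in ALDH-positive cells, by a mean of 0.74 and 0.22. The second probe set of Mcm4 read 5.96, 2.00 and 4.87 against 6.25, 6.09 and 6.18, a difference of 1.90 with no overlap between the fractions, and of 0.80 without pool 2. Gins2, a subunit of the GINS complex, read 5.84, 5.06 and 4.92 against 5.96, 6.01 and 4.91, a difference of 0.35 (SE 0.65), and of 0.05 without pool 2. The other kept probe set of Gins2 differed by 0.97, 3.85 and -0.43, a mean of 1.46, and of 0.27 without pool 2.

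**Figure D2:**
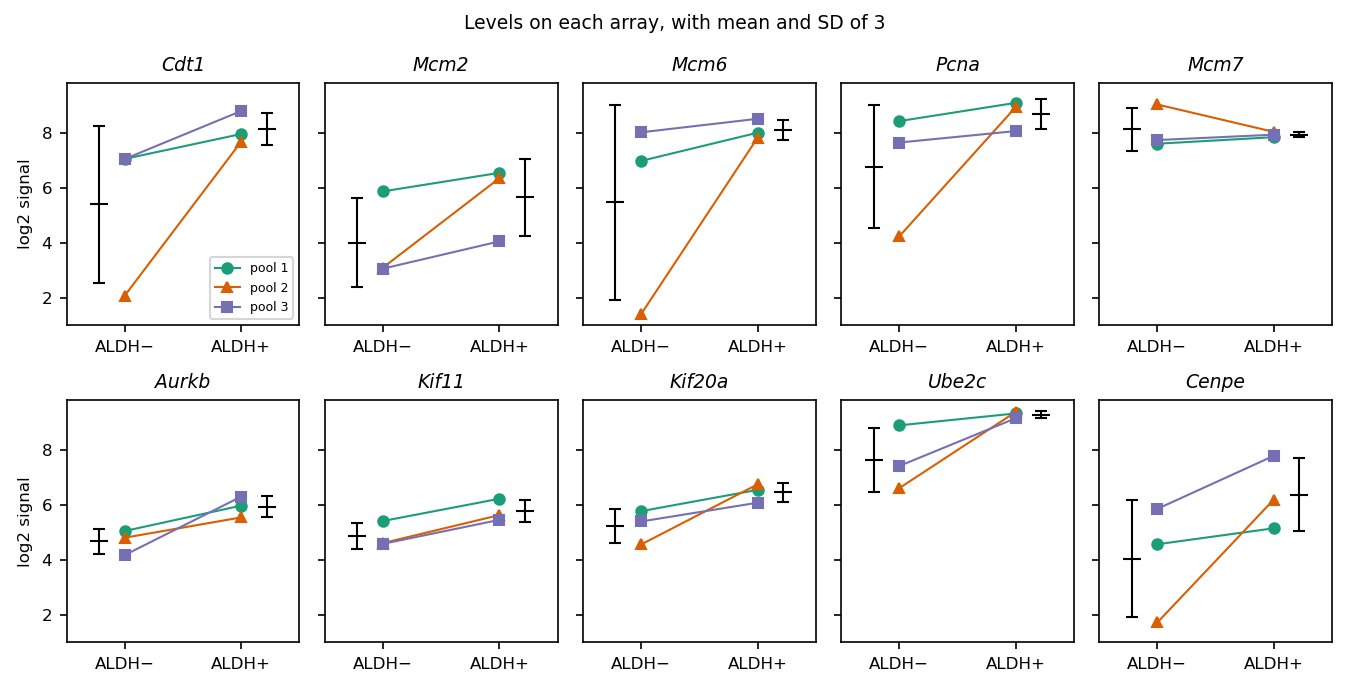
Log2 signal on each array (vertical axis) of 10 members in ALDH-negative (ALDH−) and ALDH-positive (ALDH+) cells, with a line joining the arrays of each pool and bars beside them for the mean and SD of 3. Cdt1, Aurkb, Kif11, Kif20a and Ube2c show no overlap between the fractions, and the lowest Cdt1 value, 2.09, is that of the ALDH-negative array of pool 2.

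The E-type cyclins, which drive entry into DNA synthesis, went apart. Ccne1 read 4.70, 7.04 and 5.24 in ALDH-negative cells, against 4.84, 4.94 and 5.43 in the positive fraction, with differences of 0.14, -2.10 and 0.19. Ccne2 read 4.04, 3.11 and 4.42 against 3.72, 4.20 and 6.80. Its difference was -0.32 in pool 1 and 2.39 in pool 3, the widest pool 3 difference of the 32 members, and its mean was 1.05 (SE 0.75). With array weights, which favour pool 3, Ccne2 passed as higher (limma adjusted p = 0.0161), together with Cdt1 (adjusted p = 0.0136).

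At the fork and in nucleotide supply the values were mixed. Pcna read 8.42, 4.23 and 7.64 against 9.08, 8.92 and 8.05, higher in each pool by 0.66, 4.69 and 0.42 (mean 1.92, SE 0.96), and by 0.54 without pool 2. Tyms, which makes thymidylate, read 3.31, 6.24 and 4.44 against 4.10, 3.97 and 3.93, a mean difference of -0.66 (SE 0.78). Rrm2, the small subunit of ribonucleotide reductase, read 7.86, 9.81 and 8.90 against 8.57, 8.62 and 8.56, a mean difference of -0.28 (SE 0.69). For Tyms and Rrm2 the ALDH-negative array of pool 2 was again the highest, and without pool 2 the means were 0.14 and 0.18. The other kept probe set of Tyms, with a mean log2 signal of 3.08, lay higher by 0.42, 1.32 and 0.14. Its mean difference was 0.63, and 0.28 without pool 2. Another Rrm2 probe set, at 7.48, 6.28 and 6.04 against 7.91, 8.23 and 7.87, did not overlap and lay higher by 1.41. The remaining kept probe set of Rrm2, at 6.90, 7.03 and 3.45 against 6.95, 6.77 and 4.44, overlapped. It differed by 0.26, with -0.25 in pool 2, and by 0.52 without pool 2.

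Turning to mitosis, the brightest probe sets of the Aurora kinases lay higher in each pool. Aurkb, the kinase of the chromosomal passenger complex, read 5.05, 4.81 and 4.18 in ALDH-negative cells, against 5.98, 5.55 and 6.30 in the positive fraction, without overlap. Its differences of 0.92, 0.74 and 2.12 gave 1.26 (SE 0.67), and 1.52 without pool 2, so that it did not rest on the array that stood apart. Aurka, which matures the spindle poles, read 6.15, 3.29 and 4.98 against 6.58, 6.83 and 5.83 (mean difference 1.61, SE 0.81; 0.64 without pool 2). The other kept probe set of Aurka differed by 0.10, -2.30 and 0.53 in pools 1 to 3, a mean of -0.56, and of 0.32 without pool 2. Birc5 (survivin), a partner of Aurkb, read 6.56, 4.00 and 3.56 against 6.76, 7.11 and 4.89 (mean 1.54, SE 0.77; 0.76 without pool 2). With array weights Aurkb passed as higher (limma adjusted p = 0.0062).

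Cyclins and their kinase lay higher in each pool as well. Ccna2, which acts from DNA synthesis until entry into mitosis and is counted as mitotic here, read 7.26, 7.78 and 6.31 against 7.55, 7.91 and 7.70. Its pool differences were 0.28, 0.13 and 1.39 (mean 0.60, SE 0.66; 0.84 without pool 2). The other kept probe set of Ccna2 differed by 1.59 without overlap, and by 0.45 without pool 2. Ccnb2 read 6.18, 4.01 and 6.48 against 6.38, 6.40 and 7.27, and Cdk1 read 7.03, 4.24 and 4.78 against 7.25, 7.44 and 5.47. The mean differences were 1.13 (SE 0.72) for Ccnb2 and 1.37 (SE 0.79) for Cdk1. Outside pool 2 the differences of Ccnb2 were 0.20 and 0.79, and those of Cdk1 0.21 and 0.69. Plk1, the polo-like kinase, was the 1 mitotic gene with a lower mean. It read 5.23, 6.30 and 4.63 against 5.49, 5.34 and 4.31, a difference of -0.34 (SE 0.66), and of -0.03 without pool 2.

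At the spindle checkpoint and the anaphase-promoting complex, Ube2c, the enzyme that brings ubiquitin to the complex, stood out for its even ALDH-positive level. It read 8.89, 6.61 and 7.41 in ALDH-negative cells, against 9.32, 9.37 and 9.14 in the positive fraction, without overlap. The difference was 1.64 (SE 0.72), 3.12-fold, and 1.08 without pool 2; with array weights it passed (limma adjusted p = 0.0202). Bub1 read 4.63, 1.82 and 5.14 against 5.00, 4.90 and 6.36, with differences of 0.37, 3.09 and 1.22. Cdc20, the activator of the complex, read 6.17, 6.70 and 8.11 against 6.85, 7.33 and 9.26, higher by 0.68, 0.63 and 1.15. Of its 3 kept probe sets, 1 differed by -0.50, and by -0.04 without pool 2. Bub1b differed by 0.50 (SE 0.67) and by 0.07 without pool 2. Its other kept probe set differed by -0.20, and by -0.30 without pool 2.

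The kinetochore motor Cenpe read 4.57, 1.74 and 5.86 in ALDH-negative cells, against 5.15, 6.19 and 7.78 in the positive fraction. It lay higher by 0.58, 4.46 and 1.92, a mean of 2.32 (SE 0.86) and of 1.25 without pool 2, and the fractions overlapped between pools. With array weights Cenpe passed as higher (limma adjusted p = 0.0116). The other kept probe set of Cenpe overlapped and differed by 0.04, 1.45 and 0.73, a mean of 0.74, and of 0.39 without pool 2. Top2a, the topoisomerase that untangles chromosomes, read 6.12, 2.40 and 6.27 against 6.63, 6.34 and 6.92, without overlap (mean 1.70, SE 0.86; 0.58 without pool 2). The other kept probe sets of Top2a overlapped, with mean differences of -0.56 and 0.56, and of 0.42 and 0.27 without pool 2. Mki67, the proliferation antigen on mitotic chromosomes, read 7.45, 7.85 and 8.85 against 8.29, 8.26 and 9.56. Its differences of 0.84, 0.41 and 0.71 lay close together, with a mean of 0.65 (SE 0.63), and here the array that stood apart did not read low. Cenpa, the centromeric histone, differed by 0.75 (SE 0.70), with -0.11 in pool 1 and 0.17 without pool 2. Its other kept probe set differed by -0.62, and by -0.21 without pool 2.

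Of the spindle motors, Kif11, which pushes the poles apart, had the closest pool differences of the probe sets that stand for the members. It read 5.42, 4.62 and 4.59 against 6.22, 5.63 and 5.46, without overlap, and lay higher by 0.81, 1.02 and 0.87 (mean 0.90, 1.86-fold; SD of the pool differences 0.11). Its SE of 0.63 is larger, because limma draws the spread of each probe set towards that of all probe sets. The other 2 kept probe sets of Kif11 overlapped and were less even, with differences of -0.09, 2.64 and 0.51 and of 0.35, 2.88 and 1.04. Kif20a, a motor of cytokinesis, read 5.77, 4.57 and 5.40 against 6.55, 6.75 and 6.08, also without overlap (mean 1.21, SE 0.68; 0.73 without pool 2). Nusap1, a microtubule binder of the spindle, read 5.28, 2.89 and 5.91 against 6.35, 5.59 and 6.32 (mean 1.39, SE 0.72; 0.74 without pool 2). In all, by the probe sets that stand for the genes, the fractions did not overlap in 6 members, against 3.55% of all genes in this direction. Of these, 1 acts in replication (Cdt1) and 5 in mitosis (Top2a, Aurkb, Kif11, Kif20a and Ube2c).

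The array that stood apart took both ends of the scale. It was the lowest of the 6 for 17 of 32 members (33.2% of all genes) and the highest for 6 (40.4% of all genes), namely Ccne1, Mcm4, Mcm7, Tyms, Rrm2 and Plk1. These 6 are also the members whose mean lay lower, and with median-centred arrays Tyms alone of them still did. With only that array left out and no pool block, each of these 6 lay higher, by 0.10 to 0.70, and the medians were 0.59 in the replication and 0.72 in the mitotic group. How far its RNA or hybridization sets the pool 2 differences was not tested.

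Several members differed between pools in both fractions alike. Birc5, Cdk1 and Mcm2 read 6.56, 7.03 and 5.87 in ALDH-negative cells of pool 1 and 3.56, 4.78 and 3.06 in those of pool 3. Cenpe, Mki67 and Cdc20 went the other way, from 4.57, 7.45 and 6.17 in pool 1 to 5.86, 8.85 and 8.11 in pool 3. By these probe sets the ALDH-positive arrays of the same pools showed the same order for each of these 6 genes. Another kept probe set of Cdc20 fell, from 6.02 to 4.63 in ALDH-negative and from 6.21 to 4.36 in ALDH-positive cells. Its remaining kept probe set rose from 4.32 to 4.99 in ALDH-negative cells and fell from 5.35 to 5.13 in ALDH-positive cells. The other kept probe set of Cenpe read 4.46 and 4.51 in ALDH-negative cells, and 4.50 and 5.24 in the positive fraction. Pool 3 also had the low 5′ Gapdh signal, and its part in these gaps was not tested.

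Probe sets of a gene were compared because the brightest one may not be typical. Of 61 kept probe sets of the members, 49 lay higher in the mean, and 57 did in pool 1, 48 in pool 2 and 47 in pool 3. Of 20 members with several, 10 had all of them higher, and 14 did without pool 2. Disagreement was largest for Mcm7, from -0.19 to 2.25, and for Mcm4, Top2a and Aurka. Without pool 2 the 4 probe sets of Mcm7 lay within 0.22 to 0.68, and those of Aurkb at 1.52 and 1.67.

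**Figure D3:**
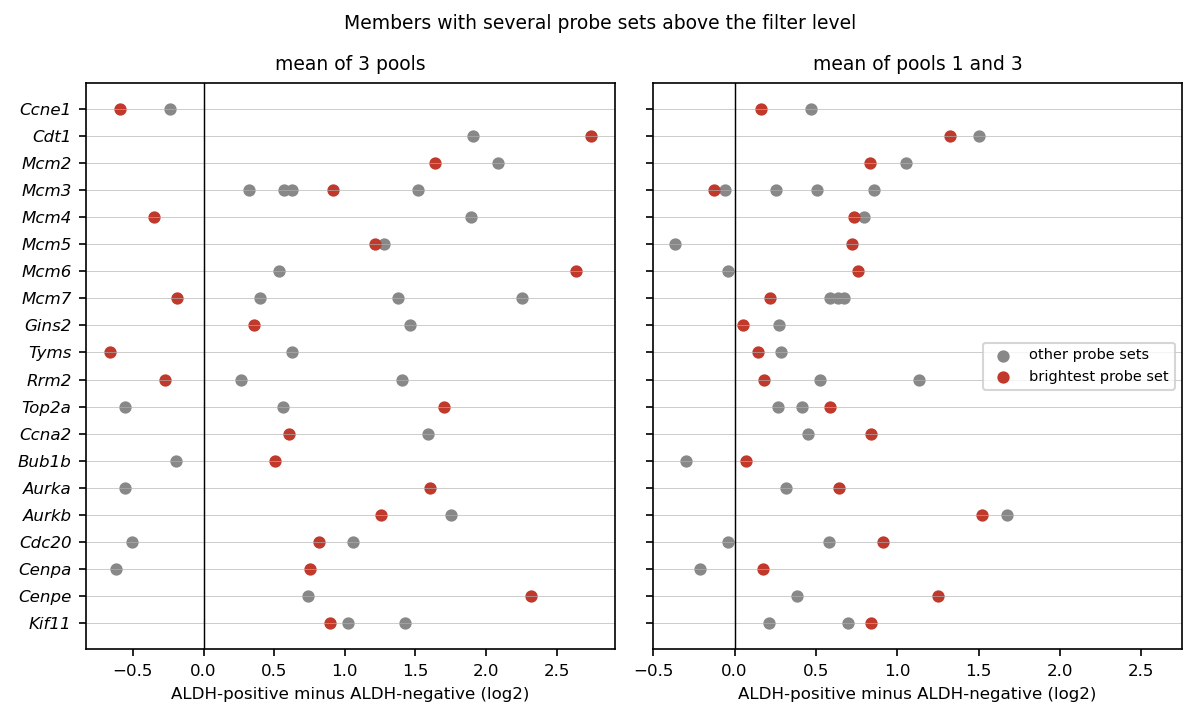
Difference between ALDH-positive and ALDH-negative cells (log2, horizontal axis) of each probe set above the filter level for the 20 members with several, over 3 pools (left) and over pools 1 and 3 (right); red marks the brightest. The range of Mcm7 narrows from between -0.19 and 2.25 on the left to between 0.22 and 0.68 on the right.

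Other genes of the same processes, from lists drawn up by function, read higher more often than lower. The other replication genes had a median of 0.69 (members 0.82), but without pool 2 it was 0.51 (members 0.49); the other mitotic genes had 0.48 (members 1.23), and 0.44 without pool 2 (members 0.75). Of 47 other replication genes 36 lay higher in the mean and 19 in all 3 pools, with medians of 0.39, 0.73 and 0.60 in pools 1 to 3. None passed the test, and 1 of 47 lay higher at the unadjusted level, a share near the 1.93% of all genes, the histone mRNA binder Slbp at 2.04 (SE 0.82; 1.17 without pool 2). Dscc1, which helps join sister chromatids, differed by 1.56 (SE 0.71; 0.97 without pool 2) and the fork protein Wdhd1 by 1.52 (SE 0.70). Of 62 other mitotic genes 48 lay higher in the mean and 20 in all 3 pools, with medians of 0.35, 0.47 and 0.57. None of the 59 kept passed, and 2 lay higher at the unadjusted level (background 1.93%), the kinetochore genes Spc25 at 2.20 (SE 0.90; 1.06 without pool 2) and Knl1 at 1.82 (SE 0.75; 1.94 without pool 2). Ect2, which starts the cleavage furrow, differed by 1.43 (SE 0.67) without overlap.

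Upstream of both groups the picture was flatter in the mean and in pool 1. The 27 genes of G1 control, RB and E2F had a median of 0.12 (0.02 without pool 2). Their medians in pools 1 to 3 were 0.02, 1.22 and 0.28, where the replication members had 0.73, 1.19 and 0.23 and the mitotic members 0.43, 2.29 and 0.82. In the mean 20 lay higher, and 3 did in all 3 pools, a share near the background of 11.3%, and none passed. E2f7, an E2F that represses its targets, read 3.51, 1.59 and 2.24 in ALDH-negative cells, against 4.07, 4.82 and 6.08 in the positive fraction, a difference of 2.54 (SE 0.82). Mybl2, a transcription factor of the MuvB complex, read 3.54, 1.96 and 2.08 against 3.91, 4.70 and 3.59 (mean 1.54, SE 0.72; 0.94 without pool 2). In both the fractions did not overlap (background 3.55%), as in the cyclin gene Ccnd1, the other of the 3, at 4.17, 3.14 and 3.92 against 5.02, 4.39 and 4.73. Myc differed by 1.88 (SE 1.11), and by 0.12 without pool 2.

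Genes that hold the cell cycle back had no common direction. Of 15, 7 lay higher and 8 lower in the mean, with a median of -0.28, and none of the 13 kept passed. Gas1, a growth arrest protein of the cell surface, was the member with the largest difference, at 6.12, 1.51 and 6.65 against 7.88, 7.69 and 8.41 (mean 3.23, SE 0.99; 1.76 without pool 2). Cdkn1b (p27), an inhibitor of cyclin E and Cdk2, read 5.57, 5.34 and 5.60 against 4.40, 5.76 and 2.73. It lay lower in pools 1 and 3, and its mean was -1.21 (SE 0.80) and -2.02 without pool 2. Gadd45a, a growth arrest gene, differed by -0.93, 4.51 and 0.93 in pools 1 to 3. Cdkn1a (p21) differed by 0.24 (SE 0.63).

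**Figure D4:**
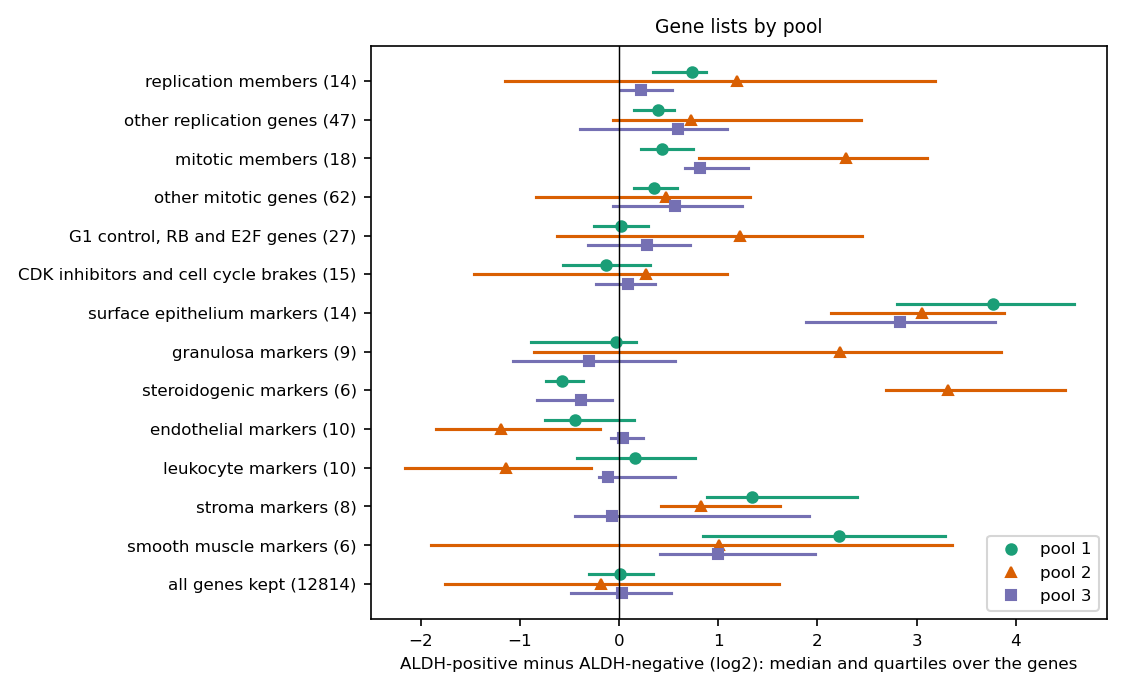
Median (marker) and quartiles (line) over the genes of each list of the difference between ALDH-positive and ALDH-negative cells (log2, horizontal axis), by pool, with the number of genes in brackets. The mitotic members lie at 0.43, 2.29 and 0.82 in pools 1 to 3, against 0.01, -0.18 and 0.03 for all genes above the filter level.

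Markers of some cell types differed between the fractions alongside these genes. The summed linear signal of the 14 surface epithelium markers ran from 571 to 723 on ALDH-negative and from 2793 to 3687 on ALDH-positive arrays. That of 8 stroma markers ran from 129 to 485 and from 968 to 1184, and that of 6 smooth muscle markers from 164 to 290.2 and from 1254 to 1623. These sums weigh bright genes most: gene by gene, 4 stroma markers lay higher and 4 lower in pool 3 (median -0.07), and 3 smooth muscle markers lay higher and 3 lower in the mean. The granulosa list (9 genes), whose cells are known to divide in growing follicles, ran from 1812 to 2787 and from 1588 to 2256, with median differences of -0.03, 2.22 and -0.30 in pools 1 to 3. The steroidogenic list (6 genes) ran from 292 to 7104 and from 3254 to 4827, with median differences of -0.57, 3.32 and -0.38 in pools 1 to 3. Of its 6 genes, 5 lay lower in pool 1, 5 higher in pool 2 and 4 lower in pool 3. Leukocyte markers (10 genes) ran from 78.3 to 390.01 and from 64.8 to 340.3, and endothelial markers (10 genes) from 79.0 to 159.5 and from 73.5 to 130.5. Erythroid markers (3 genes) ran from 37.3 to 244.7 and from 21.2 to 237. Of the 8 oocyte markers, 5 lay below the filter level on every array, as did 2 leukocyte markers and 1 each of the endothelial and stroma lists. The part of cell type in the replication and mitosis values was not tested.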

How the data were processed

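Expression was measured on 6 Affymetrix mouse arrays from total RNA that was amplified to cDNA and then biotin-labelled, per the labels' protocols. The deposited table holds 1 value per probe set and array, taken as log2 signal from its range; no header states the scale, and how the authors corrected background, summarised probes and normalized arrays is not given in the sources used here. Detection calls were not used here, and the number of arrays limits the precision.

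After removal of 64 control probe sets, 45037 remained and were quantile normalized, since array medians ran from 2.99 to 3.45. Probe sets in the lower 40% by mean (log2 level 2.73) were removed, which left 27022. Names came from GEO's platform annotation, checked through Entrez identifiers with RefSeq genes of GRCm38.p6; 34945 probe sets had 1 symbol, 932 several and 9160 none, and 34741 matched. The paired comparison used limma 3.58.1 (R 4.3.3), with pool as a term of the model. P-values were adjusted by the Benjamini-Hochberg method across every kept probe set. The fit was tested on simulated data in which the spread of each probe set was capped, so that test does not show the power of the fit on these arrays. The series design names 3 pools and a paired analysis, and arrays were paired by the replicate number in the labels. Deviations of same-numbered arrays from group means correlated at 0.38, -0.19 and 0.35 in pools 1 to 3, while negative array 1 correlated at 0.42 with positive array 2, so the values themselves do not show the pairing. The spread that the p-values measure is that between pools.

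The members and lists were chosen with earlier results of these data known, so lists are described by counts and medians and not tested. Described in full are, in each group, the 8 members of smallest p and all with a lower mean, and in each pathway list the 3 of smallest p; others named, such as Kif11, Kif20a, Ccnd1 and Cdkn1a, were chosen after their values were seen. For Mcm7, which has several starts in the promoter table, the first by position was used. Alternatives covered the scaling, the filter, the block, array weights, each pool left out and the choice of probe set; 2 ways of choosing the probe set were added after seeing the data.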

Additional observations from a re-analysis of the deposited data

How the results depend on the processing

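The 6 arrays, and 1 array that stood apart, set the limits. No member passed over all probe sets, and probe sets near the filter level carry little signal. Each pool 2 difference is taken against the array that stood apart. The number of probe sets past the adjusted threshold was 0 and stayed 0 with the values as deposited, median-centred arrays, no filter, a filter on the lower 20%, no replicate block (542 at the unadjusted level against 661 in the paired fit, with the same medians of 0.82 and 1.23) and the array that stood apart left out. It was 2953 with array weights and ran from 0 to 7 with 1 pool left out, the 7 arising without pool 1. The replication median was 0.33 with array weights and from 0.49 to 1.16 otherwise; the mitotic median ran from 0.72 to 1.59. Counts of members higher in all pools ran from 6 to 9 (replication) and from 13 to 16 (mitotic), and probe sets ending in _at or _a_at left Aurkb without a value.

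Of the members described in full, 7 changed sign under some setting, and the cause was not tested. Among the other members, Cdc20 turned lower with _at and _a_at probe sets only, and Cenpa with the mean of the probe sets of a gene. With median-centred arrays Ccne1 became 0.0012, Mcm4 0.30, Mcm7 0.62, Plk1 0.14 and Rrm2 0.42. With the values as deposited Mcm4 became 0.13, Mcm7 0.46 and Rrm2 0.25. With array weights Ccne1 became 0.12, Mcm3 -0.56, Mcm4 0.38 and Mcm7 0.17. With the array that stood apart left out and no block, Ccne1 became 0.10, Mcm4 0.70, Mcm7 0.27, Plk1 0.11, Rrm2 0.20 and Tyms 0.13. With the mean of the probe sets of a gene, Mcm4 became 0.77, Mcm7 0.96, Rrm2 0.46 and Tyms 0.15. Taking _at and _a_at probe sets gave 1.90 for Mcm4, 0.40 for Mcm7 and 1.41 for Rrm2, and taking the brightest over pools 1 and 3 gave 2.25 for Mcm7. With 1 pool left out, Ccne1 ran from -0.98 to 0.16, Mcm3 from -0.13 to 1.90, Mcm4 from -1.14 to 0.74, Mcm7 from -0.40 to 0.22, Rrm2 from -0.77 to 0.18 and Tyms from -1.39 to 0.14; each change of sign came without pool 2.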
